A study of Mus musculus with 33 samples.

Results

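Bdnf, its relative Ntf3, the receptors Ntrk2, Ntrk3 and Ngfr and the sorting receptor Sort1 were followed by RNA sequencing of the hippocampal CA1 region in mice given the BET inhibitor JQ1 or vehicle. The 6 genes were taken by symbol, with no threshold on expression and with earlier results of these data known, and all 6 were found among the 38355 genes of the aged animals and the 40678 loci of the young animals. JQ1 is a small molecule that blocks the bromodomains with which BET proteins bind acetylated histones. In the aged experiment (8 to 10 months), APP mice received JQ1 at 50 mg/kg (n = 6) or vehicle with 10% DMSO (n = 6) for 10 days, and wild-type (WT) mice received vehicle (n = 4, and 1 further labelled WT sample was not analysed here). The APP line carries mutant APP, driven in neurons by the Thy1 promoter. The strain label of the aged WT samples names the transgenic line, while their titles call them WT. In the young experiment, 3-month-old C57B/6JRj mice received JQ1 at 50 mg/kg or vehicle with 10% DMSO for 13 days (n = 8 each). By the study's methods, the APP line was studied in females and the young C57 mice were males, and tissue was taken on the day after the last memory test. The comparisons asked what JQ1 changed in APP mice and in young WT mice, how vehicle-treated APP mice differed from WT, and how JQ1-treated APP mice differed from WT.

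Neurotrophins are made as precursors that are cut to the mature factor inside the cell or after secretion. Mature BDNF binds the receptor tyrosine kinase TrkB (Ntrk2) and mature NT-3 (Ntf3) binds TrkC (Ntrk3), which signal through the Ras-ERK, PI3K-Akt and PLCγ routes, whereas the precursors bind p75NTR (Ngfr) together with sortilin (Sort1). In the hippocampus BDNF is made mainly by excitatory neurons, its transcription rises with neuronal activity, and it takes part in synaptic plasticity and memory. Ntrk2 also gives rise to a truncated receptor without kinase domain, which astrocytes make in large amounts, and the gene-level values used here pool both forms.

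Between 14605459 and 25339482 reads fell on genes in the 16 aged libraries, so that 3 reads correspond to 0.12 to 0.21 CPM, the reads of a gene scaled to a common library total. The JQ1-treated APP group held 14605459 to 24441065 such reads, vehicle-treated APP 18329265 to 25339482 and WT 20283870 to 23829182. Reads without a unique place were 29.7 to 36.4%, 28.1 to 31.1% and 26.7 to 29.9% in these groups. The part of these differences in the results was not tested. The young values were FPKM without counts, and their depth is unknown. All 6 CA1 pyramidal markers were detected, with a summed level of 731 to 1175 CPM in the aged libraries, and transcripts of neighbouring fields were present too, with dentate gyrus markers summing to 81.5 to 269.6 CPM. One aged library went against its label. The library labelled APP JQ1 replicate 4 had Thy1 at 820 CPM and Cst7, a gene of plaque-associated microglia, at 0 CPM. The 4 WT libraries lay at 841 to 1070 CPM for Thy1 and 0 to 0.24 CPM for Cst7, and the other 11 APP libraries at 1618 to 2342 and 13.7 to 55.6 CPM. The main results that rest on this library are given with and without it. The library labelled WT vehicle replicate 4 held 3065 CPM of Ttr, a choroid plexus transcript, against 3.40 to 115 CPM in the other 15.

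Bdnf (ENSMUSG00000048482) lies on chromosome 2 at 109674700 to 109727007 on the plus strand (mm10) and is transcribed from several alternative first exons. RefSeq (GRCm38.p6) gave 7 windows around its starts, and the counts of the gene pool all of them. The bases before the most upstream start and before the third of these starts are shown, 120 bases each, because alternative promoters are the best known feature of this gene and cannot be told apart in gene-level values. Capitals mark TCACGTCA, a variant of the cAMP response element through which CREB-family factors act.

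Bdnf, most upstream start, chr2:109674580-109674699 (+): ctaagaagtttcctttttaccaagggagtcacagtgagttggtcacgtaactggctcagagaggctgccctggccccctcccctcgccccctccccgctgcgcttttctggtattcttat

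Bdnf, the third start, chr2:109692316-109692435 (+): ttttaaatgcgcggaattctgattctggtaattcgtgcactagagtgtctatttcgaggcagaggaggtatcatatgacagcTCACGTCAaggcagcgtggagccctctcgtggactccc

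TCACGTCA, searched on both strands over the 250 bases before each start, occurred in 1 of the 11 windows of these genes, from 38 to 31 bases before the third Bdnf start, and in 0.35% of all 32851 windows in the table. The full element TGACGTCA, searched the same way, occurred in 0 of the 11 windows and in 1.55% of all windows. The 11 windows belonged to Bdnf (7), Ntf3 (2), Ntrk2 (1) and Ngfr (1). A match is a description of the letters only.

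**Figure D1:**
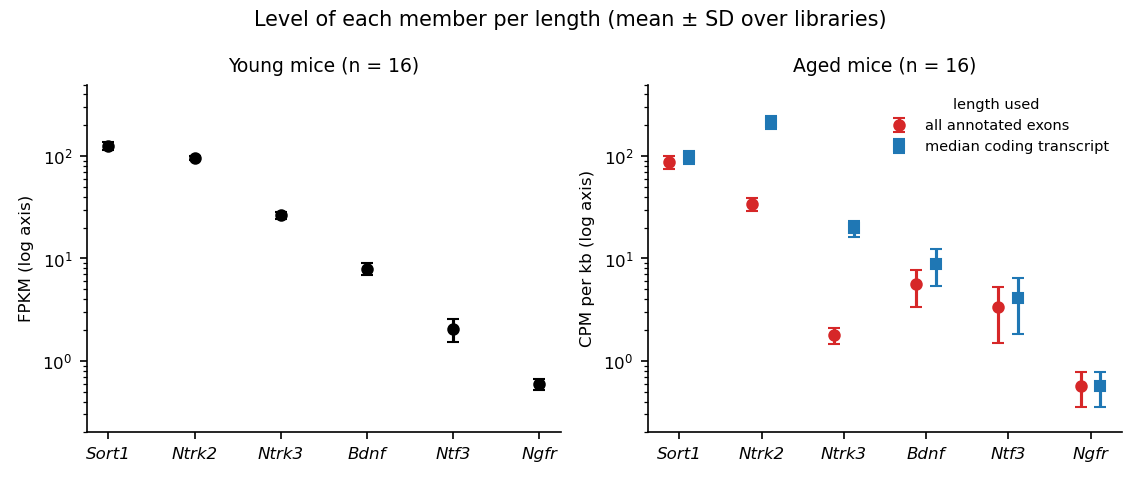
Level of each gene per length on a log axis, in young mice as FPKM (left) and in aged mice as CPM per kilobase (right), with points for the mean over 16 libraries and bars for the SD. Red circles use the length of all annotated exons and blue squares the median coding transcript, and the place of Ntrk3 depends on that length.

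Levels differed between the genes by over 2 orders of magnitude. In young mice the order by FPKM was Sort1 (125 ± 11.9, SD, n = 16), Ntrk2 (96.2 ± 3.66), Ntrk3 (26.4 ± 2.28), Bdnf (7.96 ± 1.13), Ntf3 (2.05 ± 0.52) and Ngfr (0.59 ± 0.073). The ranges of neighbours in this order did not overlap over the 16 young libraries. In aged mice the CPM per kilobase of annotated exon placed Sort1 (87.6 ± 13.0, SD, n = 16) before Ntrk2 (33.7 ± 4.93), Bdnf (5.57 ± 2.18), Ntf3 (3.39 ± 1.90), Ntrk3 (1.79 ± 0.32) and Ngfr (0.56 ± 0.21). There the ranges of Bdnf and Ntf3, and of Ntf3 and Ntrk3, overlapped, although Bdnf was above Ntf3 in 13 of 16 libraries and Ntf3 above Ntrk3 in 14 of 16. The annotated exons of Ntrk3 span 30170 bases and those of Ntrk2 19292, while their median coding transcripts have 2726 and 3049 bases. With the latter lengths, a choice made after seeing the data, the mean of Ntrk3 was 19.8 CPM per kilobase and ranked 3 of 6, and Ntrk2 at 213 ranked above Sort1 at 97.2.

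Ntf5, the NT-4 gene, was close to the limit of detection, with at most 16 reads in any aged library, and was not tested.

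**Figure D2:**
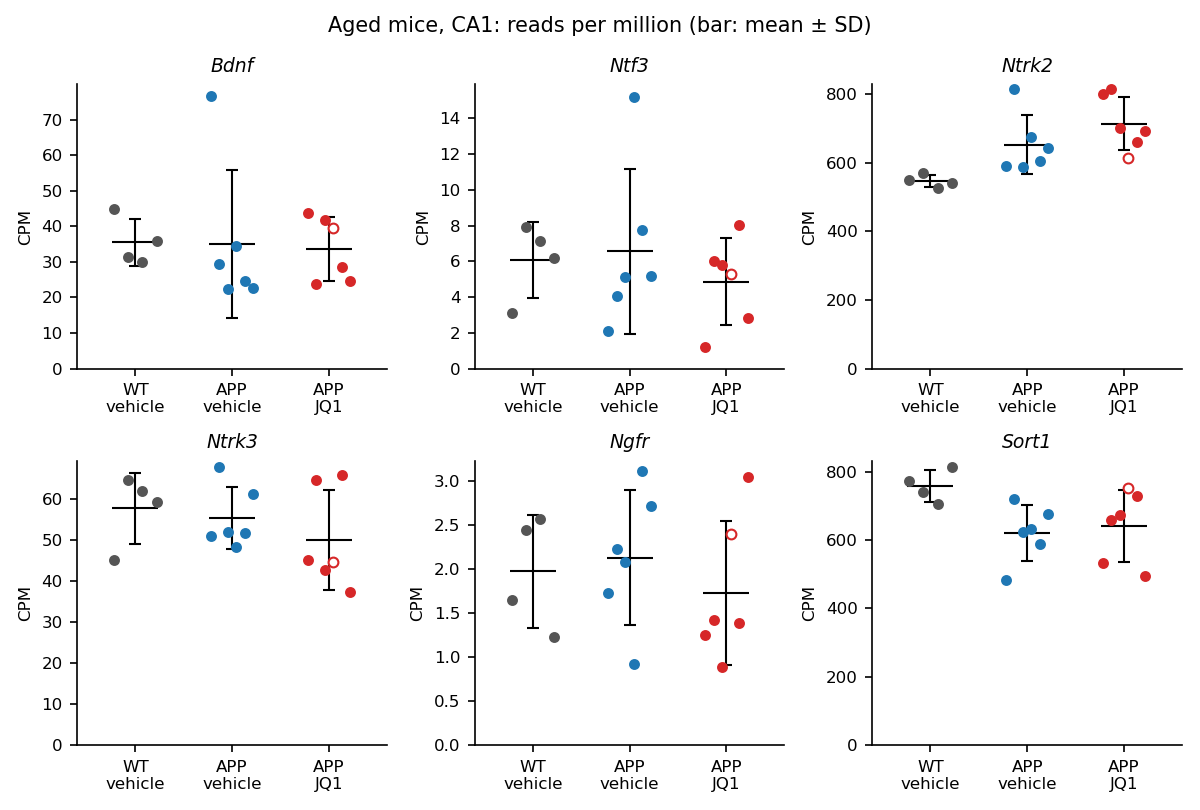
CPM of each gene in the aged libraries (y axis, starting at 0) by group, with 1 point per library and bars for the mean ± SD. The open circle is the library labelled APP JQ1 replicate 4, and 1 vehicle-treated APP library holds the highest Bdnf value at 76.8 CPM.

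None of the 6 genes passed the threshold (adjusted p under 0.05, edgeR quasi-likelihood test) for JQ1 against vehicle in APP mice, where 1.08% of 16962 genes tested did. The count was also 0 with DESeq2, and 0 of the 6 had an unadjusted p under 0.05, beside 17.6% of all genes. Against WT, 0 of 6 passed in vehicle-treated APP mice (0 with DESeq2, and 2 at an unadjusted p under 0.05, beside 14.4% of all genes) and 0 of 6 in JQ1-treated APP mice (1 with DESeq2, and 1 at an unadjusted p under 0.05, beside 14.1%). Bdnf, the ligand of TrkB, was at a lowest, median and highest of 23.7, 34.0 and 43.7 CPM in the 6 JQ1-treated APP libraries. In the 6 vehicle-treated APP libraries these values were 22.5, 27.0 and 76.8 CPM, and the 4 WT libraries had 44.8, 31.3, 30.0 and 36.0 CPM. The groups overlapped, and the log2 fold change for JQ1 in APP mice was −0.06 (95% interval −0.67 to 0.55, adjusted p = 0.94 by edgeR). The exact permutation test of the 6 against 6 libraries gave p = 0.89, two-sided, where the smallest p it allows is 0.0022. Against WT, Bdnf differed by a log2 of −0.02 (−0.70 to 0.66, adjusted p = 0.99) in vehicle-treated and −0.08 (−0.76 to 0.60, adjusted p = 0.95) in JQ1-treated APP mice. The 3 aged comparisons share libraries with each other. The labels do not say that the samples of a group were prepared apart, and p-values measure only the spread between these samples.

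A single library set the spread of Bdnf. Vehicle-treated APP replicate 1 had 1740 Bdnf reads and 76.8 CPM, against 22.5 to 34.4 CPM in the other 5 of its group. Without it, the log2 fold change of Bdnf was 0.34 for JQ1 against vehicle (adjusted p = 0.36 by edgeR) and −0.41 for vehicle-treated APP mice against WT (adjusted p = 0.37). The exact permutation p was then 0.16 and 0.056 in these 2 comparisons, beside 0.89 and 0.74 with all libraries. The same library held the highest value of the 16 for 8 of the 20 listed BDNF- and activity-response genes, among them Npas4 (75.8 CPM, others 6.13 to 31.2), Fos (61.3 CPM, others 5.06 to 26.7) and Nptx2 (127 CPM, others 14.4 to 37.4). Npas4 and Fos are transcription factors induced by activity, and Nptx2 is a secreted pentraxin of excitatory synapses. Gfap, an astrocyte filament gene, was also highest there (5166 CPM). The part of these values in the Bdnf level was not tested.

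Ntf3 (ENSMUSG00000049107, chromosome 6 at 126101412 to 126166910, minus strand), the ligand of TrkC, varied most in the aged libraries, from 1.21 to 15.2 CPM, with 30 to 282 reads behind each value. Its lowest, median and highest values were 1.21, 5.54 and 8.05 CPM with JQ1 and 2.08, 5.15 and 15.2 CPM with vehicle in APP mice, and the WT libraries had 3.09, 7.92, 7.13 and 6.21 CPM. The groups overlapped throughout. The log2 fold change was −0.43 (−1.38 to 0.52, adjusted p = 0.66) for JQ1 in APP mice, 0.10 (−0.95 to 1.16, adjusted p = 0.95) for vehicle-treated APP mice against WT, and −0.33 (−1.38 to 0.73, adjusted p = 0.84) for JQ1-treated APP mice against WT.

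Ntf3 moved with dentate gyrus markers from library to library. Over the 16 aged libraries, the deviation of log2 Ntf3 from its group mean had a Pearson r of 0.90 and a Spearman rho of 0.79 with the mean deviation of the 6 dentate gyrus markers. Of 84 such relations (6 genes against 14 gene lists) these had adjusted permutation p of 0.011 and 0.033, and r was 0.86 without the 2 libraries farthest from the median of the markers. In the 16 young libraries r was 0.59 and rho 0.56 (adjusted permutation p = 0.21 and 0.35), and r was 0.37 without the 2 farthest. The vehicle-treated APP library with the highest Ntf3 also had the highest sum of the 6 dentate markers, 269.6 CPM, and the WT library with the lowest Ntf3 of its group had the lowest sum of all, 81.5 CPM. In dissected tissue, fewer cells of a type and less RNA per cell cannot be told apart.

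Ntrk2 (ENSMUSG00000055254, chromosome 13 at 58806569 to 59133970, plus strand), the gene of TrkB, was higher in every APP library than in every WT library. The 4 WT libraries had 550, 571, 526.5 and 541 CPM. The lowest, median and highest values were 588, 625.4 and 814 CPM in vehicle-treated and 615, 699 and 815 CPM in JQ1-treated APP mice, so that neither group overlapped with WT. Of all genes tested, 4.94% were without overlap and higher in vehicle-treated APP mice, and 2.55% in JQ1-treated APP mice. The log2 fold change against WT was 0.26 (0.05 to 0.47, adjusted p = 0.24 by edgeR) with vehicle and 0.39 (0.17 to 0.60, adjusted p = 0.055) with JQ1, and the exact permutation tests of these 6 against 4 libraries gave p = 0.019 and 0.0095, where the smallest p possible is 0.0048. Neither adjusted p passed the threshold. With vehicle, the exact p was 0.060 without WT replicate 4 or without WT replicate 5.

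The call for Ntrk2 in JQ1-treated APP mice against WT depended on the libraries and the tool. Without the library labelled APP JQ1 replicate 4, its log2 fold change was 0.42 (adjusted p = 0.023 by edgeR), and 3.6% of genes were called and higher in that fit. Without vehicle-treated APP replicate 2, a library of neither group compared but of the same fit, it was 0.37 (adjusted p = 0.030), and DESeq2 gave 0.38 (adjusted p = 0.010), with 3.84% of genes called and higher. Over the 24 alternatives the adjusted p ranged from 0.010 to 0.24. The library labelled APP JQ1 replicate 4 had the lowest Ntrk2 of its group, 615 CPM, above the 571 CPM of the highest WT library. Between JQ1 and vehicle in APP mice Ntrk2 differed by a log2 of 0.13 (−0.06 to 0.32, adjusted p = 0.48, exact permutation p = 0.19), and the exact p was 0.037 without vehicle-treated APP replicate 2, which had the highest value of its group.

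Astrocyte markers moved with the groups in the same direction as Ntrk2. The sum of the 6 markers was 2165 to 2337 CPM in WT, 3318 to 7370 in vehicle-treated and 2512 to 7145 in JQ1-treated APP mice, and without Gfap the sum of the other 5 was 1871 to 2044, 2056 to 2422 and 2189 to 3068 CPM. Against WT, 1 of the 6 markers rose in vehicle-treated APP mice (Gfap, log2 fold change 3.18, adjusted p = 0.0099) and 3 of 6 rose in JQ1-treated APP mice (Gfap, the water channel Aqp4 and the glutamate transporter Slc1a3). Within groups, over the 16 aged libraries, deviations of Ntrk2 had r = 0.57 with those of the astrocyte markers (adjusted permutation p = 0.29). Without the 2 farthest libraries r was 0.35, and in the young libraries it was −0.05 (adjusted permutation p = 0.96). Markers of oligodendrocyte precursors had r = 0.65 in aged (adjusted permutation p = 0.28) and −0.33 in young libraries. The part of the astrocyte markers in the level of Ntrk2 between groups was not tested. The genes most like Ntrk2 across the 16 aged libraries, after removing group means, included Snx29 and Tjp1, with r of 0.90 and 0.88.

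Ntrk3 (ENSMUSG00000059146, chromosome 7 at 78175959 to 78738012, minus strand), the gene of TrkC, had lowest, median and highest values of 37.2, 44.9 and 65.8 CPM with JQ1 and 48.2, 51.9 and 67.8 CPM with vehicle in APP mice, and 45.2, 64.6, 61.9 and 59.2 CPM in the 4 WT libraries. In the JQ1 group 4 of the 6 libraries lay below all vehicle-treated APP libraries, yet the groups overlapped and the log2 fold change was −0.14 (−0.44 to 0.15, adjusted p = 0.63). It was −0.06 (adjusted p = 0.90) with vehicle and −0.21 (adjusted p = 0.62) with JQ1 against WT. Of the annotated genes that overlap these loci, the count files held 1 for Ntrk3, 1 for Sort1 and 0 for the other members, and whether the counting used strand is not given in the sources used here.

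Ngfr (ENSMUSG00000000120, chromosome 11 at 95568818 to 95587735, minus strand), the gene of p75NTR, was the lowest of the 6, with 14 to 71 reads in the aged libraries. Its lowest, median and highest values were 0.89, 1.402 and 3.04 CPM with JQ1 and 0.92, 2.15 and 3.11 CPM with vehicle in APP mice, and 1.64, 2.45, 2.57 and 1.23 CPM in WT. All groups overlapped. The interval for JQ1 in APP mice, a log2 of −0.99 to 0.38 around −0.31 (adjusted p = 0.67), leaves room for a change of nearly 1 log2 unit at this depth. Markers of cholinergic neurons, a main site of Ngfr in the forebrain, were near the limit of detection, with a sum of 0.18 to 2.38 CPM for the 2 markers found.

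Sort1 (ENSMUSG00000068747, chromosome 3 at 108284082 to 108361511, plus strand), the gene of sortilin, had lower values in vehicle-treated APP mice than in WT, which passed the exact test of this gene alone and not the test adjusted over all genes. The WT libraries had 772, 740, 707 and 815 CPM. Lowest, median and highest values were 484, 627 and 722 CPM with vehicle and 494, 667 and 753 CPM with JQ1 in APP mice, and 5 of the 6 vehicle-treated and 4 of the 6 JQ1-treated libraries lay below all WT libraries. The log2 fold change against WT was −0.29 (−0.54 to −0.03, adjusted p = 0.27 by edgeR, exact permutation p = 0.024) with vehicle and −0.24 (−0.50 to 0.01, adjusted p = 0.38, exact permutation p = 0.090) with JQ1. Without the library labelled APP JQ1 replicate 4, which had the highest Sort1 of its group (753 CPM), the latter was −0.30 (adjusted p = 0.23, exact permutation p = 0.048). With vehicle, the exact p was 0.060 without WT replicate 1 and 0.071 without WT replicate 5. Between JQ1 and vehicle in APP mice Sort1 differed by 0.05 (−0.18 to 0.27, adjusted p = 0.87).

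Sort1 followed the CA1 pyramidal markers within the groups of both experiments. Its deviations had r = 0.83 and rho = 0.85 with the mean deviation of the 6 CA1 markers over the 16 aged libraries (adjusted permutation p = 0.011 and 0.026, among the 84 relations). In the 16 young libraries r was 0.81 (adjusted permutation p = 0.029) and rho 0.62 (0.34). Without the 2 libraries farthest from the marker median r was 0.78 in aged and 0.81 in young mice. Between groups, 0 of the 6 CA1 markers passed the test in any of the 3 aged comparisons. Their estimates against WT ran from −0.63 to 0.30 in vehicle-treated APP mice, with 3 of 6 below 0, and in JQ1-treated APP mice 5 of 6 were below 0, with a median of −0.17. Their part in the level of Sort1 between groups was not tested.

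**Figure D3:**
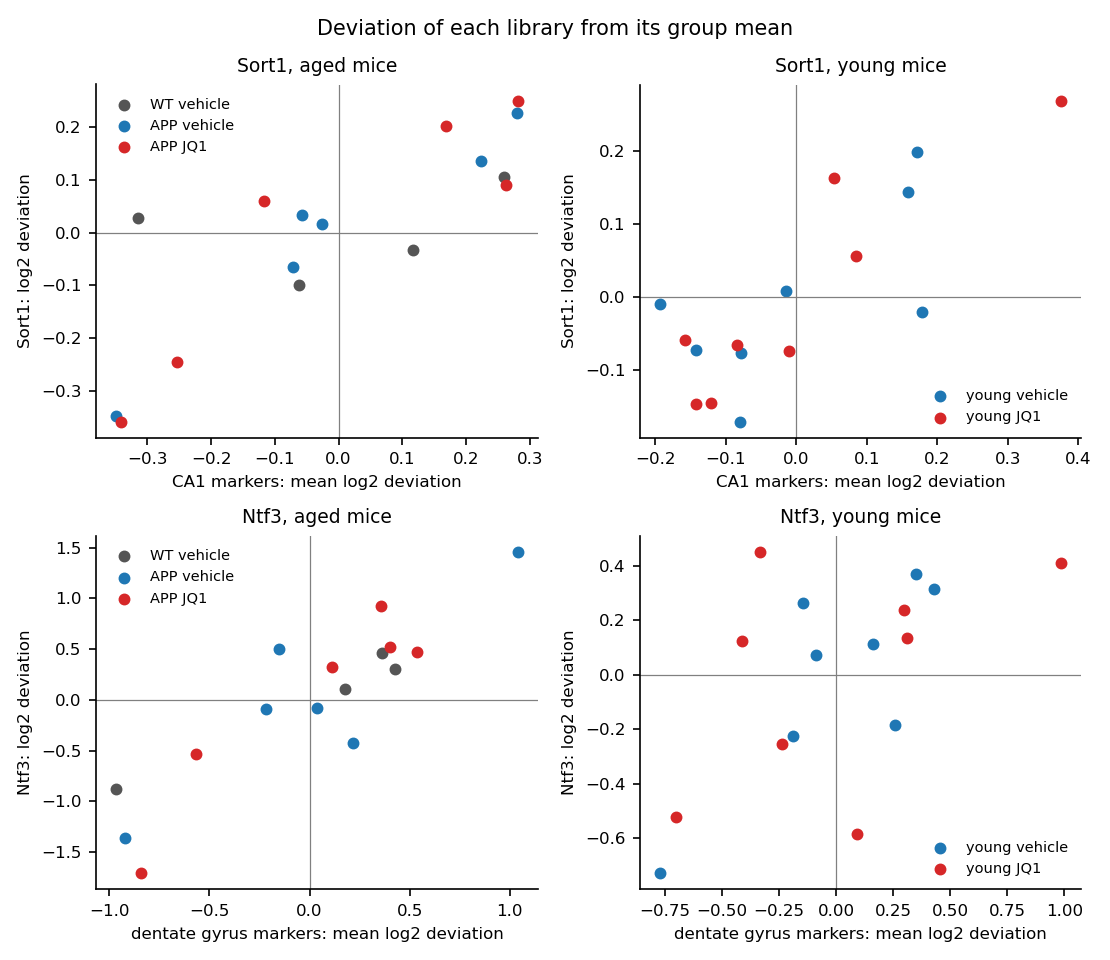
Deviation of each library from its group mean on the log2 scale, for Sort1 against CA1 markers (top) and Ntf3 against dentate gyrus markers (bottom), in aged (left) and young mice (right), with 1 point per library. Pearson r is 0.83 and 0.81 for Sort1, and 0.90 and 0.59 for Ntf3.

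In young mice the 6 genes were close to even between JQ1 and vehicle. None passed the threshold (limma on log2(FPKM + 0.1), 1 locus called in all), where 0.00543% of 18420 loci tested did, and 0 of the 6 had an unadjusted p under 0.05, beside 4.65% of all loci. The study itself reported more genes as changed by JQ1 in young mice, with none of these 6 among them. Bdnf had lowest, median and highest values of 5.44, 8.33 and 9.65 FPKM with JQ1 and 6.80, 7.69 and 9.56 FPKM with vehicle, and Ntrk2 had 93.2, 95.6 and 101.9 against 89.7, 95.7 and 104.2 FPKM. Sort1 had 114, 121 and 152 against 110, 122 and 142 FPKM, in a locus that also carries the name Gm12525. All groups overlapped.

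The young intervals were narrower than those of the aged comparisons. On the log2(FPKM + 0.1) scale the fold change was 0.02 for Bdnf (95% interval −0.20 to 0.24), 0.0029 for Ntrk2 (−0.071 to 0.077), −0.05 for Ntrk3 (−0.19 to 0.08), 0.03 for Sort1 (−0.11 to 0.17), 0.10 for Ntf3 (−0.28 to 0.48) and −0.04 for Ngfr (−0.29 to 0.21), with adjusted p of 0.98 or above by limma. The added constant understates changes of Ngfr, whose values lay between 0.45 and 0.70 FPKM. The difference between the aged and the young response to JQ1 was not tested, because the 2 experiments were deposited in different units.

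**Figure D4:**
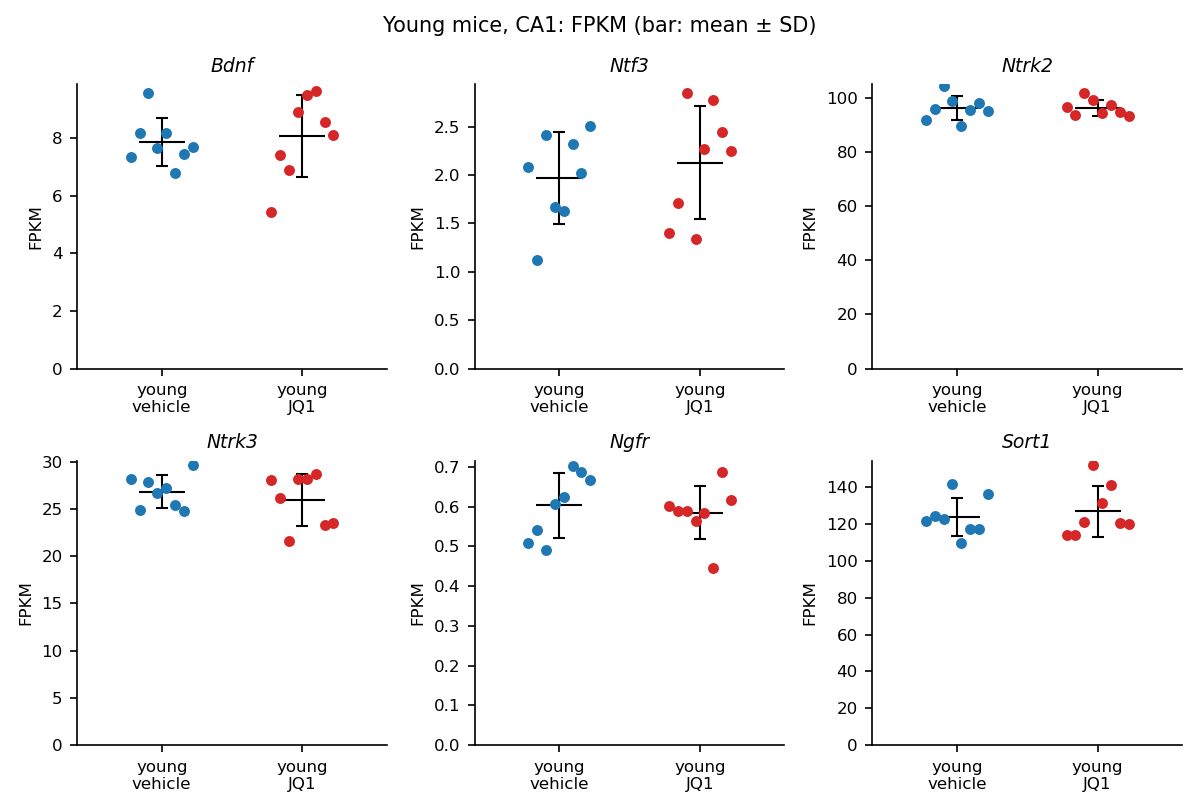
FPKM of each gene in the young libraries (y axis, starting at 0) by treatment, with 1 point per library and bars for the mean ± SD. For each gene the JQ1 and vehicle points overlap.

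**Figure D5:**
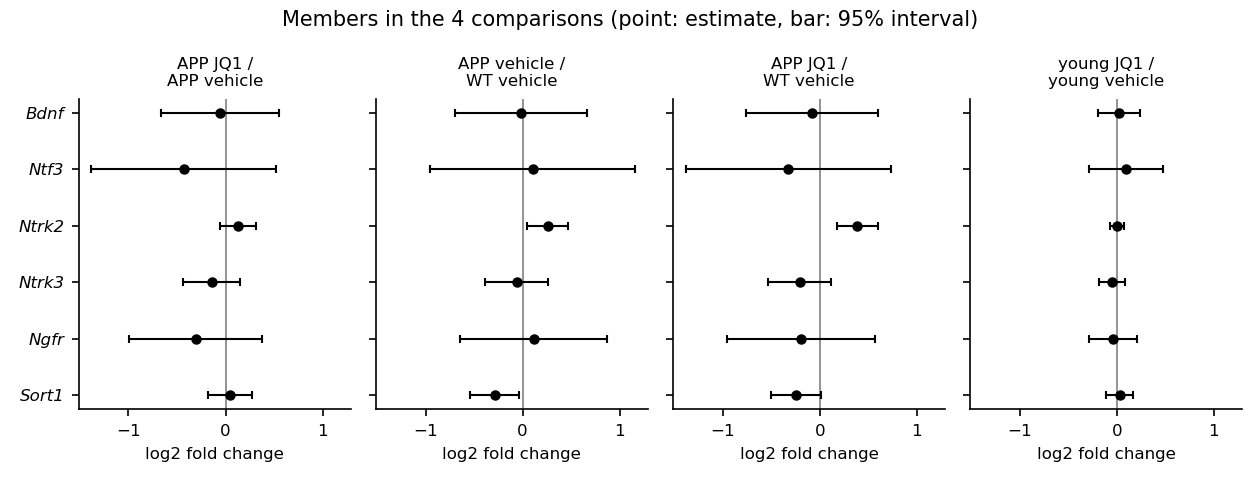
Log2 fold change of each gene in the 4 comparisons, with the estimate as a point and its 95% interval as a bar. The intervals of Ntrk2 against WT and of Sort1 in vehicle-treated APP mice against WT lie off 0, before adjustment over all genes.

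Around these genes, 134 others of the neurotrophin system were listed in 6 groups, of which 130 were tested in aged and 124 in young mice. For JQ1 against vehicle in APP mice 0 of 130 rose and 5 fell (3.85%, where 0.466% of all genes fell). The lists were drawn up with earlier results of these data known, so the 2 shares are not an independent test. From the same data, the study itself reported more of the listed genes as changed by JQ1 in APP mice. Among them were Rtn4r, Rtn4rl2, Pik3r2 and Tcf4, which did not pass here. It also reported the 5 genes that fell here. The 5 were Lingo1, a partner of p75NTR and the Nogo receptor (log2 fold change −0.48, adjusted p = 0.039), the receptor adaptor Frs3 (−0.43, 0.029), the Csk-like kinase Matk (−0.36, 0.045), Map2k2 (−0.39, 0.046), which encodes the ERK kinase MEK2, and the secreted neuropeptide precursor Vgf (−0.78, 0.034). Vgf, which BDNF induces, was at 56.6 to 76.3 CPM in the 6 JQ1-treated and 80.2 to 189 CPM in the 6 vehicle-treated APP libraries, so the groups did not overlap. Lingo1 was at 132 to 170.2 CPM with JQ1 and 180.4 to 293 CPM with vehicle, also without overlap (1.15% of all genes were lower without overlap). With a correction for GC content and length 0 of these 5 genes passed (adjusted p from 0.52 to 0.76), and 36 genes passed in all, against 184. Leaving out single libraries left 0 of the pathway genes called without APP JQ1 replicate 2, 3 or 4 or APP vehicle replicate 3 or 5, and 8 without APP vehicle replicate 2.

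By group, the listed genes that passed were 1 of 13 p75NTR partners, 3 of 54 Trk adaptors and kinases and 1 of 20 BDNF response genes, with 0 of 6 other ligands and receptors, 0 of 14 genes of precursor processing and secretion and 0 of 23 regulators of Bdnf transcription. The median log2 fold change of the 20 response genes was −0.41 for JQ1 in APP mice, beside −0.0010 over all genes, and 17 of the 20 estimates were below 0. Single libraries weighed on this median. APP vehicle replicate 1 held the highest value of its group for 11 of the 20 genes, and without it the median was −0.13, with 14 of 20 below 0. APP JQ1 replicate 1 held the lowest of all 16 libraries for 8 of the 20, and without it the median was −0.29. Without the library labelled APP JQ1 replicate 4 it was −0.56, with 0 of the 20 genes called. In young mice the median was 0.09, beside 0.0025, with 17 of 20 above 0 and 0 of 124 pathway genes called. The study itself reported Rtn4r, a listed p75NTR partner, as raised by JQ1 in young mice. Its estimate here was 0.29 (0.09 to 0.49, adjusted p = 0.98 by limma). Among regulators of Bdnf, Tcf4 came nearest to the threshold in APP mice (0.35, adjusted p = 0.10 by edgeR), and the study itself reported it as raised by JQ1.

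Against WT, 1 of the 130 genes passed in each aged comparison (0.77%). Of all genes, 2.57% passed for vehicle-treated APP mice, with 2.49% upward, and 2.06% for JQ1-treated APP mice, with 0.13% downward. Vgf was lower in JQ1-treated APP mice than in WT, at 64.3 ± 7.36 (n = 6) against 115 ± 15.2 CPM (n = 4), a log2 fold change of −0.84 (−1.22 to −0.45, adjusted p = 0.025). That call was lost without APP JQ1 replicate 1, 2 or 6 or WT replicate 3, 4 or 5, with adjusted p up to 0.11, and with the correction for GC content and length (adjusted p = 0.099). Over all 24 alternatives Vgf passed in 15, with adjusted p up to 0.27.

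Beside these changes, markers of microglia differed from WT in both APP groups. In each, 4 of 6 microglia markers and 5 of 5 plaque-associated microglia markers rose, and the latter summed to 30.8 to 35.1 CPM in WT, 181 to 475 CPM in vehicle-treated and 33.8 to 375 CPM in JQ1-treated APP mice, with the library labelled APP JQ1 replicate 4 at 33.8. Between JQ1 and vehicle in APP mice 0 of the 6 microglia and 0 of the 5 plaque-associated microglia markers passed (edgeR), and all 5 of the latter had estimates below 0, with a median of −0.48 and a lowest of −0.94. Those estimates include the library labelled APP JQ1 replicate 4, and none without it is given. The other JQ1-treated libraries summed to 188 to 375 CPM for the plaque-associated markers, within the 181 to 475 CPM of the vehicle group. For JQ1-treated APP mice against WT, the interneuron marker Sst, a neuropeptide gene, fell by 0.48 on the log2 scale (adjusted p = 0.029), and 5 of 5 interneuron markers had estimates below 0. In vehicle-treated APP mice against WT 5 of 5 were below 0 too, with a median of −0.16 and 0 passing. Between JQ1 and vehicle in APP mice 3 of 5 were above 0. The part of these markers in the pathway genes was not tested.

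The genes most like each member across the 16 aged libraries, by r of the deviations from group means, were Klhl2 (0.94), Sorcs3 (0.91) and Gpr3 (0.90) for Bdnf, and Maneal (0.92), Zfp239 (0.90) and Btbd3 (0.89) for Ntf3. For Ntrk3 they were Thada, Arid1a and Zc3h4 (0.93, 0.93 and 0.92), for Ngfr Mab21l1, Esr2 and Fam69c (0.90, 0.89 and 0.89), and for Sort1 2900026A02Rik, Adgrb3 and Pgr (0.96, 0.95 and 0.93). Sorcs3 is itself a member of the sortilin family. These r are the highest of 16962 genes and share the same libraries, and are given as a description.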

How the data were processed

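RNA from dissected CA1 was sequenced on an Illumina HiSeq instrument, with base calling by CASAVA 1.8.2. For the aged libraries the authors deposited raw read counts per Ensembl gene, aligned with STAR to mm10 (at most 2 mismatches) and counted with HTSeq. Rows of each file that name no gene, 40.6 to 52.9% of its total, were left out. For the young libraries the authors deposited FPKM per merged locus, made with Cufflinks and Cuffdiff (the submitters' notes also name TopHat), and the depth is unknown. Other versions are not given in the sources used here.

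Counts were tested with edgeR 4.0.16 (TMM, filterByExpr, robust quasi-likelihood, 3 aged groups in 1 fit of 16962 genes) and FPKM with limma 3.58.1 (trend, robust) on log2(FPKM + 0.1), for loci at 0.5 FPKM or more in at least 8 of 16 libraries, in R 4.3.3. Fold changes of low genes are understated on that scale. P-values were adjusted by Benjamini-Hochberg over all genes tested, with a threshold of 0.05. Single genes were also compared by a two-sided exact permutation test of mean log2(value + 0.1), unadjusted. CPM were scaled to the TMM-adjusted total of the genes tested, except the CPM given for 3 reads, which used the reads on genes. Correlations used deviations from group means of log2(value + 0.1), with 100000 permutations within groups, and the relations printed were picked after all 84 had been seen. Both tests were checked on simulated data. DESeq2 1.42.0, other scaling and filters, 2-group fits, a correction for GC content and length, a replicate block and leaving out libraries were alternatives.

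The members, lists and tests were chosen with earlier results of these data known. Beside the 6 members, the text names up to 5 genes per list that passed in a comparison, the nearest to passing where none did, and 3 genes per member by likeness. Genes of single libraries (Npas4, Fos, Nptx2, Gfap, Ttr) were named after their values were seen. Bdnf promoter windows came from RefSeq, and gene coordinates from GENCODE M21. Results for some listed genes are not reported here.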

Additional observations from a re-analysis of the deposited data

Results flagged for a closer look

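Bdnf in the library labelled APP vehicle replicate 1 stood at 76.8 CPM, far above the other 5 libraries of its group (22.5 to 34.4 CPM). The gap to its nearest neighbour was 0.781 of the group's whole range, above the 95% critical value of 0.625 for 6 samples. It was the only 1 of 30 groups of a member that was set apart in this way, and chance sets apart about 1 group in 20. Its values for other genes are given with the account of Bdnf, and their part in it was not tested.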

How the results depend on the processing

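No member passed the threshold under any alternative except Ntrk2 in JQ1-treated APP mice against WT. For JQ1 against vehicle in APP mice (184 genes called, 5 pathway genes), the number of genes called was 749 with DESeq2, 87 with the replicate block, 36 with the GC and length correction, 32 with both and 34 without the 3 libraries that stood apart (APP JQ1 replicate 4, APP vehicle replicate 1 and WT vehicle replicate 4, chosen after seeing the data), and 65 to 446 with single libraries left out. Pathway genes called were 10 with DESeq2, 1 without the filter, 2 with only the 2 groups, 0 with the block, 0 with the correction, 0 with both, 1 without the 3 libraries and 0 to 8 with single libraries left out. For vehicle-treated APP mice against WT (436 and 1), 798 genes were called with DESeq2, 679 with only 2 groups, 35 with the block, 47 with block and correction and 154 to 601 with single libraries left out, and pathway genes were 2, 2, 0, 0 and 0 to 2. For JQ1-treated APP mice against WT (349 and 1), these were 800, 227, 21, 42 and 11 to 651, and 542 without the 3 libraries. Pathway genes there were 5 with DESeq2, 2 with RLE scaling, 2 with 2 groups, 0 with the block, 0 with block and correction, 5 without the 3 libraries and 0 to 4 with single libraries left out. Members called there were 1 with DESeq2 and 0 to 1 with single libraries left out. In young mice 0 loci were called without the filter, 0 with the block and 0 to 2 with single libraries left out (1 otherwise). Members under 0.05 by the exact test were 0 to 1, 0 to 2 and 1 to 2 in the 3 aged comparisons with single libraries left out, and 1 for vehicle-treated APP mice against WT without the 3 libraries. Ntrk3 moved from rank 5 to 3 by level with the transcript length. The cause of these changes was not tested.

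Some estimates that did not pass the test changed sign. For JQ1 in APP mice Bdnf was at 0.032 with the block and 0.29 without the 3 libraries, and Sort1 at −0.065 without them. For vehicle-treated APP mice against WT, Bdnf was at 0.054 with the block, 0.10 with the correction and 0.16 with both, Ngfr at −0.024, −0.080 and −0.22, Ntf3 at −0.034 with both, and Arhgdia at −0.0026 with the correction and −0.011 with both. Against WT in JQ1-treated APP mice Bdnf was at 0.086 with the block. With single libraries left out, JQ1 against vehicle in APP mice ranged over −0.15 to 0.34 for Bdnf, −0.63 to 0.011 for Ntf3 and −0.017 to 0.11 for Sort1, vehicle-treated APP mice against WT over −0.41 to 0.10 for Bdnf, −0.34 to 0.29 for Ntf3 and −0.060 to 0.26 for Ngfr, and JQ1-treated APP mice against WT over −0.17 to 0.048 for Bdnf. In young mice the ranges were −0.020 to 0.10 for Bdnf, −0.0055 to 0.18 for Ntf3, −0.011 to 0.020 for Ntrk2, −0.071 to 0.0086 for Ngfr and −0.0066 to 0.060 for Sort1.

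The replicate numbers were not taken as pairs of samples. Same-numbered libraries correlated above 0.1 in 3 of 6 pairs of JQ1 and vehicle in APP mice (mean r 0.131, beside −0.022 for different numbers), 0 of 4 and 1 of 4 pairs with WT, and 1 of 8 young pairs. Penk was at 231 CPM in APP vehicle replicate 1 and 213 CPM in APP JQ1 replicate 1, against 24.2 to 45.4 CPM in the other 14 aged libraries. Whether same-numbered APP libraries share an origin was not tested.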

Other observations

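Of the 18 genes most like a member in the aged libraries, 15 could be examined in the young libraries, which had no part in their choice, and 13 of the 15 correlations were positive. The 15 pairs share members and libraries, and the share of positive correlations among other gene pairs is not given. That count is therefore a description only. After adjustment over the 15, 2 had a permutation p under 0.05 for Pearson's r. Sort1 and 2900026A02Rik, a gene named only by its clone, had r = 0.89 and rho = 0.84 over the 16 young libraries (adjusted permutation p = 0.00015 and 0.0030, the first being the smallest that the permutations can give), and r = 0.79 without the 2 farthest libraries. Ntrk3 and Arid1a, a subunit of the BAF chromatin remodelling complex, had r = 0.62 and rho = 0.59 (adjusted permutation p = 0.04995 and 0.091), and r = 0.59 without the 2 farthest.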
